A study of Mus musculus with 36 samples.

Results

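The regions described here are 557 stretches of chromatin in mouse cortical neurons that were more accessible than in silenced controls after 1 h of BDNF and also after 1 h of KCl. They were chosen from 58177 ATAC-seq peaks by their own accessibility values. Peaks with a mean count of at least 20 over the 18 libraries were kept (40667). Counts were scaled to the total of each library and expressed as CPM. For each stimulated group, L was the log2 ratio of its mean CPM to the mean CPM of the 6 control libraries, with 0.5 CPM added to both, minus the median of that ratio over the kept peaks. Members had L of at least 1 at BDNF 1 h and at KCl 1 h. A further 2397 kept peaks reached this only with BDNF and 290 only with KCl.

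Neurons came from cortices of CD-1 embryos at embryonic day 15, pooled across embryos and kept in culture for 7 days. All groups were first silenced with 100 µM AP-5, which blocks NMDA receptors, and 1 µM TTX, which blocks sodium channels. After 2 h of silencing, stimulated neurons received 10 ng/ml BDNF or 55 mM KCl for 1, 6 or 10 h, and control neurons stayed silenced for a total of 3, 8 or 12 h. Each of the 9 groups had 2 ATAC-seq and 2 RNA-seq libraries, and the controls of the 3 times were used together as 6 libraries. The study calls the libraries of a group biological replicates. The labels do not say whether they came from separate cultures, and p-values measure the spread between these libraries.

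BDNF is a secreted neurotrophin that acts through the receptor kinase TrkB and the MAP kinase pathway, whereas raised KCl depolarises the membrane and lets calcium in through voltage-gated channels. Both routes switch on immediate early genes within minutes. These include Fos and Jun family genes, whose products pair to form AP-1, a transcription factor that binds the palindrome TGANTCA, most often TGACTCA. AP-1 can help to open nucleosome-covered enhancers, distal elements that act on promoters from a distance. In neurons, activity-regulated enhancers are known to carry this motif.

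A few of the strongest windows are shown so that the regions can be read as DNA. They are the 300 bases around the midpoint of the 6 members with the largest smaller value of L at 1 h, and of the 2 promoter members with the largest such value (mm10, GRCm38, plus strand, RefSeq genome sequence). Capitals mark each TGANTCA match, and TGAGTCA is TGACTCA read on the other strand. Each line gives the window and the protein-coding gene with the nearest start.
chr13:20433229-20433528, nearest to Elmo1: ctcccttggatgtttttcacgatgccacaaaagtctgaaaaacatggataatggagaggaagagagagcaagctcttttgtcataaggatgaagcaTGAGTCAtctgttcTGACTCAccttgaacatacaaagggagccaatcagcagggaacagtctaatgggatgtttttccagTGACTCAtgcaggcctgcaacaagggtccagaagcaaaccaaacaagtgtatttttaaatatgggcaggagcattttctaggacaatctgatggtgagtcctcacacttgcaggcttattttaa
chr2:94052061-94052360, nearest to Alkbh3: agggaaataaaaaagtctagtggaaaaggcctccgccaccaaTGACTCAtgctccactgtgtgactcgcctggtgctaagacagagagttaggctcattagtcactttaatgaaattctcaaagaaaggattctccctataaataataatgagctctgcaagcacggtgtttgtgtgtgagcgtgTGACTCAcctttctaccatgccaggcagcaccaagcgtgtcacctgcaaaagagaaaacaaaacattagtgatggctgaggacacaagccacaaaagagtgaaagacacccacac
chr15:8994905-8995204, nearest to Ranbp3l: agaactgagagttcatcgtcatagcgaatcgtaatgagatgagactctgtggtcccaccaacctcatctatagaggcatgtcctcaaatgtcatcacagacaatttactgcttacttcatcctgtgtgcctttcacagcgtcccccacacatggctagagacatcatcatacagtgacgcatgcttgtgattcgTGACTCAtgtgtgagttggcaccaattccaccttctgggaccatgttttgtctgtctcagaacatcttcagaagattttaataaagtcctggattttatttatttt
chr15:13384853-13385152, nearest to Cdh6: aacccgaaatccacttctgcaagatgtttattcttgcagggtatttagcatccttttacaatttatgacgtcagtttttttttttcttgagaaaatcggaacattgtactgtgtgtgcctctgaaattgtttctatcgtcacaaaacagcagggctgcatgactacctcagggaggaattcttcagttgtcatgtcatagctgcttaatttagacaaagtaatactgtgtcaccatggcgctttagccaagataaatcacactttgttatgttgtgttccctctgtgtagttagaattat
chr7:66593649-66593948, nearest to Asb7: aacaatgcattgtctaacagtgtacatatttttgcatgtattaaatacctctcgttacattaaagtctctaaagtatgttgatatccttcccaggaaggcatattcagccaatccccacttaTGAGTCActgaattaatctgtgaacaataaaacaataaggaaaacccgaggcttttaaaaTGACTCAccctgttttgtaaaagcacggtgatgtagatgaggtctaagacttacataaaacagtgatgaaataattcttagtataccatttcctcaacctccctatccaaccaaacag
chr13:48609133-48609432, nearest to Ptpdc1: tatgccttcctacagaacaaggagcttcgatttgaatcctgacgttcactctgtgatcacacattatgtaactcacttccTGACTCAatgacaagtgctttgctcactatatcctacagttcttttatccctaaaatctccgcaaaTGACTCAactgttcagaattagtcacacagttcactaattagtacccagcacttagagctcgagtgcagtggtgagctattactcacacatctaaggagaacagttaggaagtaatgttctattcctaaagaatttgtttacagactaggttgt
chr16:77602576-77602875, nearest to Gm11146: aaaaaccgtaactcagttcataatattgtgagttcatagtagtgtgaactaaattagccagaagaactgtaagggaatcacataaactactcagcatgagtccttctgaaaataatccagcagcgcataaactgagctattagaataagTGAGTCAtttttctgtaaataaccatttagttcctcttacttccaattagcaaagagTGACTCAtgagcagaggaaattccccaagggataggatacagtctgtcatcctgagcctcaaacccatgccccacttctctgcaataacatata
chr4:57636800-57637099, nearest to Pakap: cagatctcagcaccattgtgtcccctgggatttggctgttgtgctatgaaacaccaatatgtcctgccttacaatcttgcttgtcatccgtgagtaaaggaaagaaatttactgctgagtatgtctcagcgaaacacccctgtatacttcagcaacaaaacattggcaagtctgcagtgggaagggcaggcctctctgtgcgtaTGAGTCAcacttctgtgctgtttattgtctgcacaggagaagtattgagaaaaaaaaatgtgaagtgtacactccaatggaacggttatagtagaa
The window near Elmo1 held 3 TGACTCA matches on either strand, those near Alkbh3, Asb7, Ptpdc1 and Gm11146 held 2 each, and those near Ranbp3l and Pakap held 1 each. The window near Cdh6 held no TGANTCA. It held 1 match to the cyclic AMP response element, TGACGTCA, the site of CREB, which none of the other windows had.

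Accessibility of the members at 1 h was a condition of their choice, so it is described here without a test. Median L over the 557 members was 2.23 at BDNF 1 h (range 1.01 to 4.51) and 1.23 at KCl 1 h (1.00 to 2.48). The value was higher with BDNF in 508 members (91.2%) and higher with KCl in 49. The BDNF minus KCl difference in L had a median of 0.93 and ran from -0.65 to 3.10. Among all kept peaks, L of at least 1 was reached by 7.26% at BDNF 1 h and by 2.08% at KCl 1 h.

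**Figure D1:**
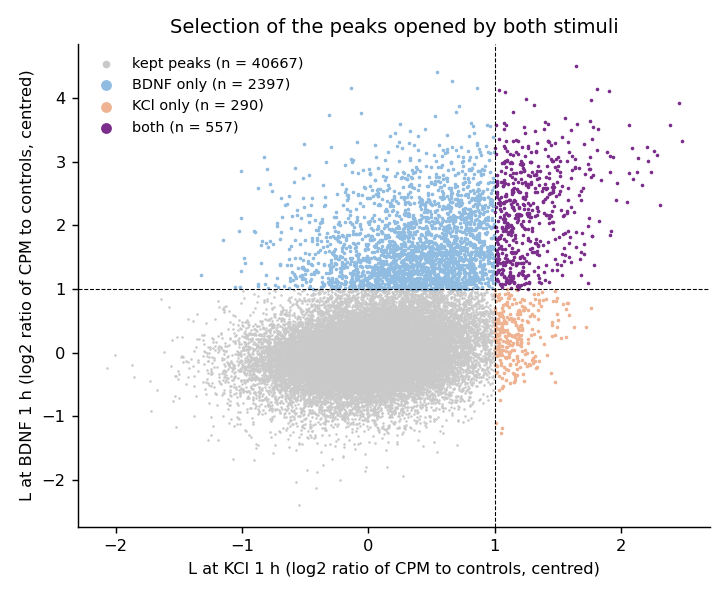
L at BDNF 1 h (vertical axis) against L at KCl 1 h (horizontal axis), both log2 ratios of CPM to controls centred on the kept peaks, with 1 point per kept peak (n = 40667). Dashed lines mark L of 1; the 557 members fill the upper right, next to 2397 peaks above the line with BDNF only and 290 with KCl only.

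Single libraries gave the same picture for BDNF and an uneven one for KCl. The median CPM of the members was 2.56 to 2.93 in the 6 controls, 14.1 and 14.5 in the BDNF 1 h libraries, and 9.13 and 6.57 in the KCl 1 h libraries. Against the control mean, 535 and 538 of the 557 members reached a log2 ratio of 1 in the BDNF 1 h libraries, and 537 (96.4%) and 289 (51.9%) in KCl 1 h libraries 1 and 2. The KCl 1 h libraries therefore differed over the members, and with 2 libraries neither can be called the unusual one. Over the 290 peaks opened by KCl only, 217 and 216 reached a log2 ratio of 1 in libraries 1 and 2. KCl 1 h library 2 was the deepest ATAC library, at 6.24 M reads in peaks. Without KCl 1 h library 2 the rule chose 943 peaks, 537 of them members, and without KCl 1 h library 1 it chose 342, 289 of them members. In CPM, both BDNF 1 h libraries lay above all 6 controls in 550 members (98.7%, against 12.5% of kept peaks) and both KCl 1 h libraries in 470 (84.4%, against 12.7%), counts that the rule itself favours.

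At the threshold, the 3 members just inside had a KCl L of 1.00, 1.01 and 1.01, near Toporsl, Tnc and Rdh10. The 3 kept peaks just outside, near Tfcp2l1, Sgce and Met, had a KCl L of 1.00, 1.00 and 1.00 after rounding and fell below 1 in the next decimals. In the Rdh10 peak (chr1:16130032-16130345) the KCl 1 h libraries had 5.07 and 4.65 CPM, and in the Sgce peak (chr6:4722273-4722615), left out, 9.13 and 6.89 CPM, with controls of 0.944 to 2.87 and 2.12 to 5.46. The step in L across the threshold was smaller than the difference between replicate libraries.

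The members of largest L with both stimuli were distal elements, each near a different gene. Among these genes, Elmo1 and Mmp16 were each nearest to 2 members. The peak with the highest smaller value lay in an intron of Elmo1, an activator of Rac signalling, 150 kb from its start (chr13:20433180-20433576). It had 0.861, 1.46 and 2.85 CPM in controls (lowest, median and highest), 19.6 and 18.5 CPM at BDNF 1 h, and 11.7 and 10.6 CPM at KCl 1 h. All 4 stimulated libraries lay well above every control, with the replicates of each stimulus close together.

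A peak over an exon of Hsd17b12, 41.4 kb from the start of Alkbh3, a demethylase of alkylated nucleic acids, had the highest CPM of the 10 strongest (chr2:94051926-94052495). Controls had 1.42, 3.05 and 5.77 CPM, the BDNF 1 h libraries 48.9 and 53.3, and the KCl 1 h libraries 27.6 and 11.5. The peak near Ranbp3l (chr15:8994947-8995162, intronic) had 0.236, 0.597 and 2.297 CPM in controls, 15.4 and 15.3 at BDNF 1 h, and 7.86 and 5.93 at KCl 1 h. Neither peak overlapped with controls in any 1 h library, and both were higher with BDNF.

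The intergenic peak 211 kb from Cdh6, which encodes a cadherin, had close values with both stimuli at 1 h (chr15:13384863-13385142). Its controls had 0.861, 2.83 and 3.98 CPM, its BDNF 1 h libraries 16.7 and 12.2, and its KCl 1 h libraries 17.7 and 13.2. At 6 h it had 5.29 and 8.24 CPM with BDNF and 15.2 and 19.3 with KCl, a direct difference of -1.15 on the log2 scale (SE 0.40) that did not pass (edgeR adjusted p = 0.119).

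Peaks near Asb7, a ubiquitin ligase adaptor, and Ptpdc1, a phosphatase-domain gene, started from little accessibility. Controls at the Asb7 peak (chr7:66593659-66593937) ran from 0.236 to 1.65 CPM, against 10.2 and 9.16 at BDNF 1 h and 6.84 and 4.49 at KCl 1 h. Controls at the Ptpdc1 peak (chr13:48609136-48609429), in an intron, ran from 0.569 to 1.89 CPM, against 11.5 and 13.8 at BDNF 1 h and 10.1 and 3.85 at KCl 1 h. The other 4 of the 10 strongest lay near Lrrc4, Epha3, Mmp16 and Sik3, at 39.5 to 451 kb from the start, and had smaller values of L between 2.17 and 2.24.

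**Figure D2:**
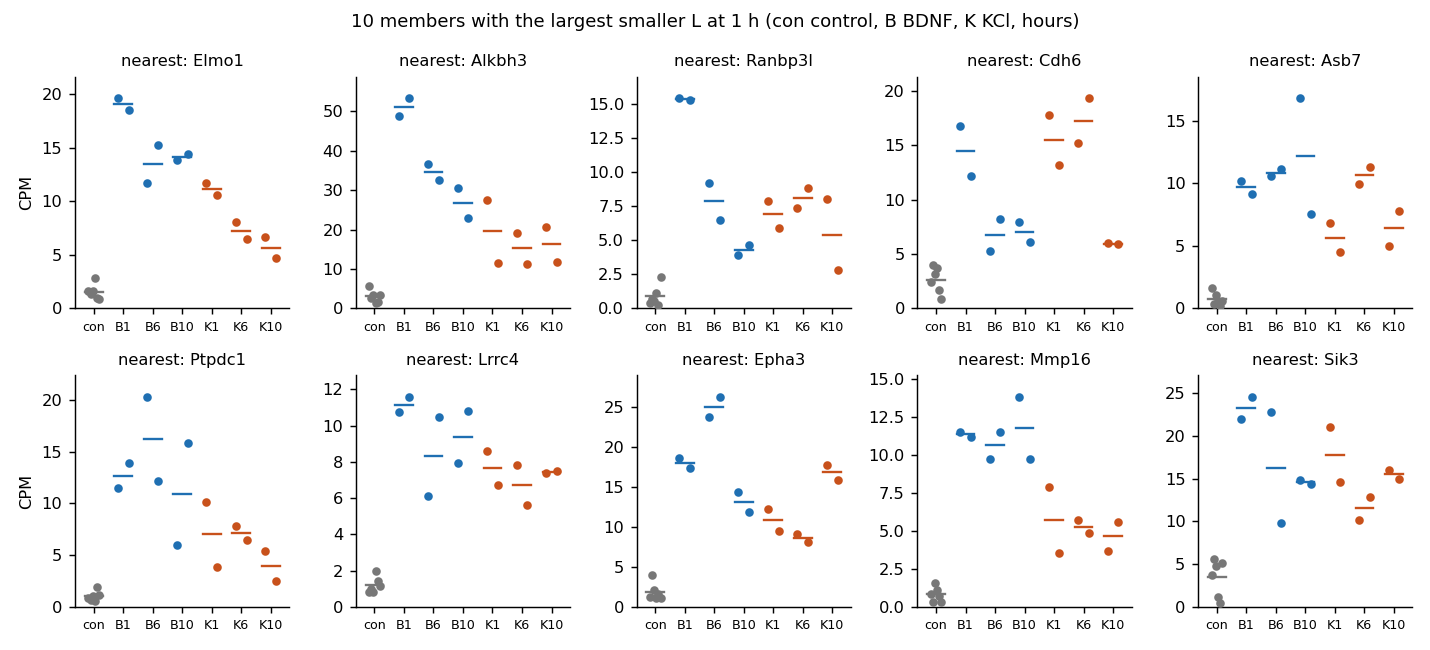
CPM in each of the 18 ATAC libraries (points) with group means (lines) for the 10 members with the largest smaller L at 1 h, named by nearest gene; con is control, B BDNF and K KCl, followed by hours. The near-Elmo1 panel shows controls of at most 2.85 CPM under BDNF and KCl values at 1 h of 10.6 to 19.6 CPM.

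Most members were still more accessible than controls at 6 and 10 h. The rule used the controls, and the later libraries entered it through the mean count over all 18 libraries, so the comparison is a description. Median L was 1.85 at BDNF 6 h and 1.74 at BDNF 10 h, and 1.38 at KCl 6 h and 1.45 at KCl 10 h. L was at least 1 in 467 members at BDNF 6 h (83.8%, against 5.21% of kept peaks) and in 468 at BDNF 10 h (84.0%, against 5.36%). It was at least 1 in 422 members at KCl 6 h (75.8%, against 4.15%) and in 419 at KCl 10 h (75.2%, against 4.19%).

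Both libraries of a late group lay above all 6 controls in 497 members at BDNF 6 h (89.2%, against 9.36% of kept peaks), 410 at KCl 6 h (73.6%, against 11.3%), 471 at BDNF 10 h (84.6%, against 10.2%) and 456 at KCl 10 h (81.9%, against 12.9%). The median CPM of the members stayed between 10.1 and 11.1 in the 4 late BDNF libraries and between 8.05 and 9.04 in the 4 late KCl libraries. Over all kept peaks, library medians ran only from 11.4 to 13.1 CPM. The late BDNF medians lay below those of BDNF 1 h, and the late KCl medians lay in the range of the KCl 1 h libraries.

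**Figure D3:**
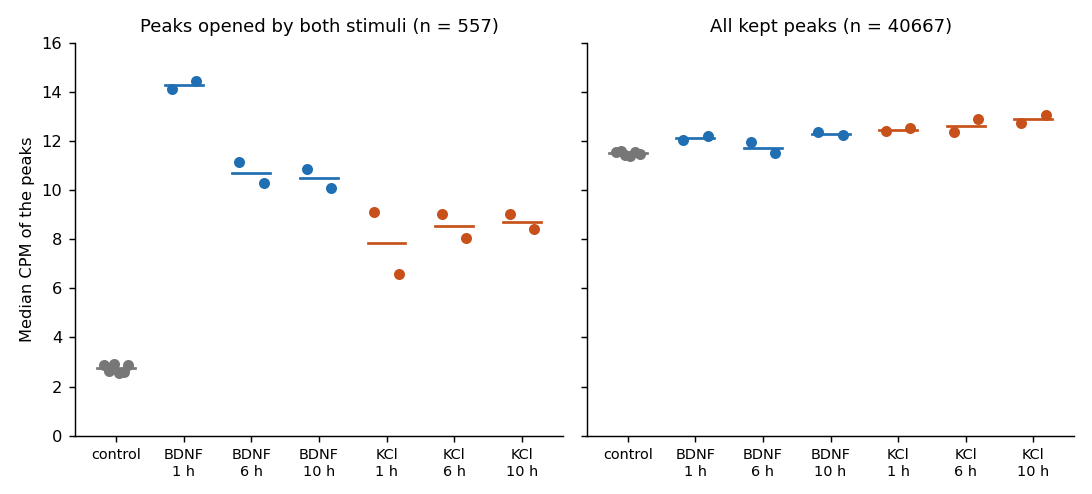
Median CPM over the 557 members (left) and over the 40667 kept peaks (right) in each ATAC library (points, with group means as lines). Members sit at 2.56 to 2.93 CPM in controls and at 6.57 to 14.5 CPM in every stimulated library, while kept peaks sit between 11.4 and 13.1 CPM throughout.

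The time of highest L is given as a description, since L at 1 h chose the members, which favours 1 h. With BDNF, L was highest at 1 h in 413 members (74.1%). With KCl it was highest at 1 h in 158, at 6 h in 176 and at 10 h in 223. The KCl 1 h libraries differed in member level, which bears on the KCl 1 h mean and so on these orders. Of the peaks that passed at 1 h with BDNF only, 62.3% and 58.8% had L of at least 1 at BDNF 6 and 10 h, and 31.7% and 37.1% did at KCl 6 and 10 h. Of those that passed with KCl only, 26.6% and 21.0% did at KCl 6 and 10 h.

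The late BDNF and KCl libraries were tested against each other. They entered the rule only through the mean count over all 18 libraries, in which deeper libraries weigh more. The 6 h libraries had 3.59 and 5.83 M reads in peaks with BDNF, and 4.21 and 1.24 M with KCl. The 10 h libraries had 2.02 and 2.78 M with BDNF, and 2.99 and 3.21 M with KCl. The filter could thus favour the deeper stimulus, and its effect on the counts below was not tested. At 6 h, 67 of the 557 members were higher with BDNF and 3 were higher with KCl (12.0% and 0.539%) in edgeR's quasi-likelihood test at an adjusted p below 0.1. Of the 56383 peaks tested, which needed a mean count of only 10, 2.25% were higher with BDNF and 1.37% lower. The median BDNF minus KCl difference was 0.47 on the log2 scale over members and 0.00 over all peaks, and 427 members (76.7%) had a difference above 0. Peaks opened at 1 h by BDNF only had 401 of 2397 higher and 3 lower (median 0.60), and those opened by KCl only had 0 of 290 higher and 20 lower (median -0.43, with 66 at an unadjusted p below 0.05).

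At 10 h, 32 members were higher with BDNF and 1 was lower (5.75% and 0.180%, against 1.16% and 0.83% of all peaks), with a median difference of 0.35. Each late group had 2 libraries, and the counts were lower when any 1 of them was left out. A group left with 1 library was then assumed to vary like the other groups. Counts over all peaks with a library left out are not given here. Without BDNF 6 h library 1 or 2 the members called at 6 h were 18 or 31, and without KCl 6 h library 1 or 2 they were 30 or 23. Without BDNF 10 h library 1 or 2 those called at 10 h were 13 or 21, and without KCl 10 h library 1 or 2 they were 15 or 4.

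The clearest difference at 6 h was at the intergenic peak 28.8 kb from Noct, which encodes the circadian enzyme nocturnin (chr3:51195246-51195964). It had 77.9 and 61.8 CPM at BDNF 6 h and 29.9 and 29.8 CPM at KCl 6 h, and controls of 12.2, 14.5 and 18.6 CPM. All stimulated libraries lay above all controls, and the BDNF libraries lay above the KCl libraries. The log2 difference was 1.19 at 6 h (SE 0.20, edgeR adjusted p = 3.83e-05) and 0.94 at 10 h (SE 0.19, edgeR adjusted p = 0.00294). Without KCl 10 h library 2, the 10 h difference was 0.83 and was no longer called.

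Near Anxa1, which encodes an annexin, a distal peak (chr19:20239436-20239727) had 17.3 and 14.1 CPM at BDNF 6 h and 1.43 and 1.61 CPM at KCl 6 h, the latter within the control range of 0.332 to 2.13. KCl 6 h library 2 was the shallowest ATAC library, at 1.24 M reads in peaks, and CPM values this low rest on few reads. The log2 difference of the Anxa1 peak at 6 h was 3.499 (SE 0.58, edgeR adjusted p = 3.83e-05), and at 10 h, with KCl libraries at 4.69 and 6.85 CPM, it was 1.12 (SE 0.47, edgeR adjusted p = 0.266). A peak 309 kb from Aco1 (chr4:39833738-39834241), with no TGANTCA, had 27.3 and 22.3 CPM at BDNF 6 h against 6.65 and 3.22 at KCl 6 h (difference 2.25, SE 0.41, edgeR adjusted p = 0.000209). Controls at the Aco1 peak ran from 0.995 to 4.84 CPM, so 1 KCl 6 h library of that peak lay within them and 1 above. The Epha3 peak, among the 10 strongest at 1 h, was also higher with BDNF at 6 h (difference 1.64, SE 0.36, edgeR adjusted p = 0.00468), with 23.6 and 26.3 CPM against 9.03 and 8.05.

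At 10 h the smallest p was at a peak 69.0 kb from Slc4a7, a bicarbonate cotransporter gene (chr14:14632961-14633591, 3 TGACTCA). It had 39.5 and 37.1 CPM with BDNF, 11.4 and 11.8 with KCl, and 4.96 to 7.83 in controls, a difference of 1.77 (SE 0.27, edgeR adjusted p = 1.88e-05). An intronic peak of Iglon5, a cell adhesion gene, 3.09 kb from its start (chr7:43481106-43481532), had 24.7 and 19.1 CPM with BDNF and 5.36 and 3.73 with KCl at 10 h (difference 2.34, SE 0.43, edgeR adjusted p = 0.00059). Both were also called at 6 h, with differences of 1.36 and 1.99. The Elmo1 and Ptpdc1 peaks shown above were higher with BDNF at 10 h, by 1.40 and 1.61 (edgeR adjusted p = 0.0761 and 0.0862).

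Of the members, 4 were called lower with BDNF at 6 or 10 h. A peak over an exon of Synpr, 56.5 kb from Sntn, had 3.34 and 2.40 CPM at BDNF 6 h and 12.4 and 12.9 at KCl 6 h (difference -2.01, SE 0.50, edgeR adjusted p = 0.0146), and was not called without BDNF 6 h library 2 (-1.77) or KCl 6 h library 1 (-2.04). Those near Slc1a2, a glutamate transporter gene, and Rspo3, a Wnt agonist gene, had differences of -1.25 and -1.15 at 6 h (edgeR adjusted p = 0.0793 and 0.0911). The peak near Ank2, which encodes an ankyrin, had a difference of -1.35 at 10 h (edgeR adjusted p = 0.0941). The Slc1a2 peak was not called without BDNF 6 h library 1 (-1.03), BDNF 6 h library 2 (-1.56) or KCl 6 h library 1 (-0.54). The Rspo3 peak was not called when any 1 of the 4 libraries was left out (-1.34 to -0.93), nor was the Ank2 peak (-1.68 to -1.02), which was also not called in DESeq2 (-1.38).

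Between 6 and 10 h, edgeR called no member with BDNF (27 at an unadjusted p below 0.05), none with KCl (27) and none for the difference of the late changes between the stimuli (30). DESeq2 also called 0 in each, and edgeR called 0% of all 56383 peaks. The median change over members was -0.14 with BDNF and 0.02 with KCl. Without KCl 6 h library 1, 1 member was called with KCl and 1 for the difference. A member that was not called may still have changed, since each group had 2 libraries.

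The windows were read for the AP-1 motif, which the rule did not use. TGACTCA was present on either strand in the 300-base window of 411 members (73.8%, exact 95% binomial interval 69.9 to 77.4). Of all kept peaks 8.79% held it (8.52 to 9.07), and 4.74% of the kept peaks with L below 1 with both stimuli. Peaks opened by BDNF only held it in 56.5% (54.5 to 58.5) and those opened by KCl only in 12.8% (9.14 to 17.2). Without KCl 1 h library 1 or 2, the peaks that the rule then chose held it in 72.8% or 72.5%. The intervals cover counting error only, and a match of letters is not a bound site. With any middle base, TGANTCA was found in 481 members (86.4%) and in 13.1% of kept peaks.

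The share of members was larger with the number of matches in the window. Among kept peaks, members made up 0.394% of the 37091 windows with no TGACTCA, 9.15% of the 3169 windows with 1, and 29.7% of the 407 windows with 2 or more. Of the 557 members, 121 (21.7%) held at least 2, against 1.00% of kept peaks. The match nearest to the peak midpoint was 34.5 bases away at the median in members and 55.5 bases in kept peaks that held it, and lay within 50 bases in 65.2% and 45.5%. Among the 542 members away from promoters the share was 74.0%, against 11.6% of all kept peaks away from promoters.

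**Figure D4:**
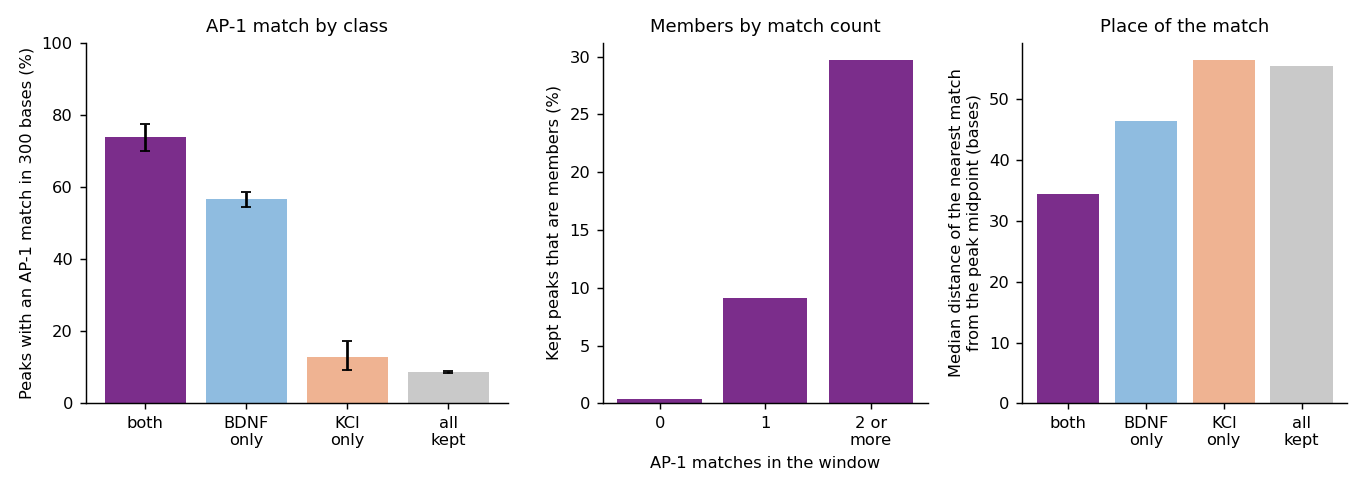
Left, share of 300-base windows with TGACTCA in members, peaks opened by BDNF only, peaks opened by KCl only and all kept peaks, with exact 95% binomial intervals. Middle, share of kept peaks that are members by number of matches, from 0.394% to 29.7%; right, median distance of the nearest match from the peak midpoint, 34.5 bases in members and 55.5 in all kept peaks.

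The bases on either side of the motif also varied. Of 556 matches with readable flanks in members, read in the orientation TGACTCA, 76 (13.7%) were GTGACTCAT, 75 (13.5%) ATGACTCAT and 68 (12.2%) GTGACTCAC, against 9.82%, 9.12% and 9.72% of 4022 matches in kept peaks. CTGACTCAG made up 21 (3.78%) in members and 8.01% in kept peaks, and TTGACTCAA 2 (0.36%) and 1.59%. These are shares of letters with no test.

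Median L at later times was larger in members with the motif, in libraries that entered the rule only through the mean count, and against controls that the rule used. Median L at BDNF 6 h was 1.95 in the 411 members with TGACTCA, 1.68 in the 70 with only another TGANTCA and 1.20 in the 76 with none. At KCl 6 h it was 1.44, 1.34 and 1.03. At 10 h the members with TGACTCA and those with no TGANTCA had 1.87 and 1.18 with BDNF and 1.52 and 1.13 with KCl. In the direct test at 6 h, 29 of the 121 members with 2 or more TGACTCA were called (24.0%, all higher with BDNF, median 0.75), and 12 of the 146 with no TGACTCA (8.22%, 10 of them higher, median 0.30).

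Other motifs were searched on both strands in the same windows. The element TGACGTCA was found in 6 members (1.08%) and 1.21% of kept peaks. GCGTGGGCG, bound by the EGR factors, was found in 0 of 557 members, which allows a share of up to 0.66%, and in 0.568% of kept peaks. Motifs rich in G and C were scarcer in members, with GGGCGGG (KLF and SP factors) in 2.15% against 18.5%, CCGGAAG (ETS factors) in 0.898% against 5.95%, and AGGGGGC (core of the CTCF site) in 2.33% against 9.37%. The members' windows also had less G and C, with a median of 42.7% against 51%. Among kept peaks with a GC share no higher than the members' upper quartile, TGACTCA was found in 14.4%.

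Motifs of neuronal and developmental factors were closer to the kept peaks. ATGCAAAT (POU factors) was in 7.00% of members and 3.96% of kept peaks, TAATTA (homeobox) in 15.4% and 11.5%, and GGAATGT (TEAD) in 5.92% and 3.77%. The MEF2 site was in 2.51% and 0.934%, the SRF CArG box in 2.15% and 1.35%, and the NFI palindrome in 1 member (0.18%) and 0.118%. The E-boxes CAGCTG and CAGATG were in 20.3% and 28.2% of members and in 24.1% and 23.1% of kept peaks. GTTGCCA (RFX) was in 4.31% and 6.82%, and AAAGGTCA (NR4A factors) in 0.539% and 0.585%.

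Members were distal. A promoter, taken as 1000 bases before to 100 bases after a protein-coding start, was touched by 15 members (2.69%), against 30.5% of kept peaks, 3.13% of peaks opened by BDNF only and 16.2% of those opened by KCl only. Introns held 242 members (43.4%), exons 14, and 286 (51.3%) were intergenic. The median distance to the nearest start was 66.2 kb, against 19.6 kb for kept peaks, and 215 members (38.6%) were over 100 kb away. They were also narrower, at a median of 350 bases against 476.

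The nearest starts of the members belonged to 507 genes, of which 46 were nearest to at least 2 members and 3 to at least 3, namely Efna5 with 4, and Lrrc4c and Pam with 3 each. The 4 near Efna5 lay 265 to 885 kb from its start. Efna5 encodes an ephrin ligand of axon guidance, Lrrc4c a synaptic adhesion protein and Pam an enzyme that amidates neuropeptides. Of the members, 18 lay within 50 kb of another member. Members were 0.393% of kept peaks on chromosome 11 and 2.06% on chromosome 3, the lowest and the highest share among autosomes.

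Of the 15 promoter members, 10 held TGACTCA. The strongest lay 631 bases before Gm11146 (chr16:77602599-77602852) with 0.412 to 2.297 CPM in controls, 14.4 and 9.77 at BDNF 1 h, and 2.79 and 7.38 at KCl 1 h, and its RNA was listed at or near 0. At the promoter of Cgref1, a growth regulator with EF-hand domains (chr5:30945463-30945946), controls had 3.16 to 6.18 CPM, BDNF 1 h 32.4 and 36.4, and KCl 1 h 17.2 and 12.7. Cgref1 RNA was 128 to 154 normalised reads in controls, 321 and 345 at BDNF 1 h (log2 change 1.24, SE 0.13, limma adjusted p = 1.04e-07) and 186 and 155 at KCl 1 h (0.28, SE 0.13, limma adjusted p = 0.0788). The promoter member of Ccn3 had a Ccn3 RNA change of -0.02 with BDNF (limma adjusted p = 0.918) and 0.40 with KCl (limma adjusted p = 0.00217).

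RNA was measured in other libraries, so the genes nearest to members could be tested. RNA values are read counts divided by a size factor per library, here called normalised reads. Neuronal markers were present in all libraries, with Map2 at 19767 to 27548 and Tubb3 at 9795 to 17370 normalised reads. Gad1 and Gad2 stood at 2371 to 5215 and 1326 to 2421, and Rbfox3 and Slc17a7 at 681 to 1224 and 528 to 944. Markers of other cells lay below Map2 and Tubb3, with Gfap of astrocytes at 98.4 to 379.7, Mbp of oligodendrocytes at 124 to 376 and Cx3cr1 of microglia at 4.92 to 41.7. Mki67 and Top2a, markers of cycling cells, stood at 1321 to 3508 and 901 to 2297, in part above Rbfox3 and Slc17a7. At 6 h, 3 of 3 astrocyte and 2 of 2 cycling markers were lower than in controls with both stimuli, and none of these 5 was called at 1 h. Of 3 oligodendrocyte markers, 1 was higher and 2 lower at 6 h with each stimulus and at BDNF 1 h, and none was called at KCl 1 h. Of 3 microglia markers, 1 was lower with each stimulus at 1 h and at 6 h. The part of these cell types in the results was not tested. In bulk samples fewer cells of a type cannot be told apart from less RNA or less open chromatin per cell.

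Of the 507 nearest genes, 493 were listed, 414 had a mean of at least 10 normalised reads and were tested, 79 were below that, and 14 were not listed. At BDNF 1 h, 102 of the 414 were called higher (24.6%) and 71 lower (17.1%) by limma at an adjusted p below 0.1, against 21.3% and 19% of the 16209 genes tested. At KCl 1 h, 117 were higher (28.3%) and 107 lower (25.8%), against 26.5% and 28.2%. These shares lay near those of all genes. The 6 comparisons with controls share the same control libraries.

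Shares differed with distance at BDNF 1 h. Among the 196 tested genes whose nearest member lay within 50 kb, 62 were higher (31.6%) and 28 lower (14.3%). Among the 218 genes farther away, 40 were higher (18.3%) and 43 lower (19.7%). Genes with any kept peak within 50 kb had 22.2% higher and 21.6% lower. The pattern was similar for peaks opened by BDNF only, with 28.1% higher and 16.3% lower within 50 kb, and 18.5% and 22.4% farther away. For peaks opened by KCl only, 18.7% were higher and 18.7% lower within 50 kb, and 20.7% and 23.1% farther away. At KCl 1 h the 196 genes near members had 53 higher (27.04%) and 52 lower (26.5%). Without BDNF 1 h library A or B, a smaller share of the 414 genes was called lower at BDNF 1 h. The share of all genes in that setting is not given here, so the drop is not particular to genes near members.

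At later times more near genes were called higher with KCl than with BDNF, as was the case for all genes. At KCl 6 h, 88 of 196 were higher (44.9%) and 46 lower (23.5%), against 33.4% and 33.1% of all genes, and at KCl 10 h 82 were higher (41.8%) and 50 lower (25.5%), against 29% and 28.2%. Genes over 50 kb away had similar shares, with 84 of 218 higher at KCl 6 h (38.5%) and 86 at KCl 10 h (39.4%). At BDNF 6 h, 68 near genes were higher (34.7%) and 52 lower (26.5%), against 22.1% and 21.1%, and at BDNF 10 h 56 were higher (28.6%) and 51 lower (26.02%), against 21.1% and 19.5%. Over all 414 genes, 172 were higher at KCl 6 h and 168 at KCl 10 h, and 121 and 103 with BDNF. The share called lower was 27.1% at BDNF 6 h and 27.3% at BDNF 10 h, and was smaller when a library of the group was left out. Shares of all genes with a library left out are not given here.

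**Figure D5:**
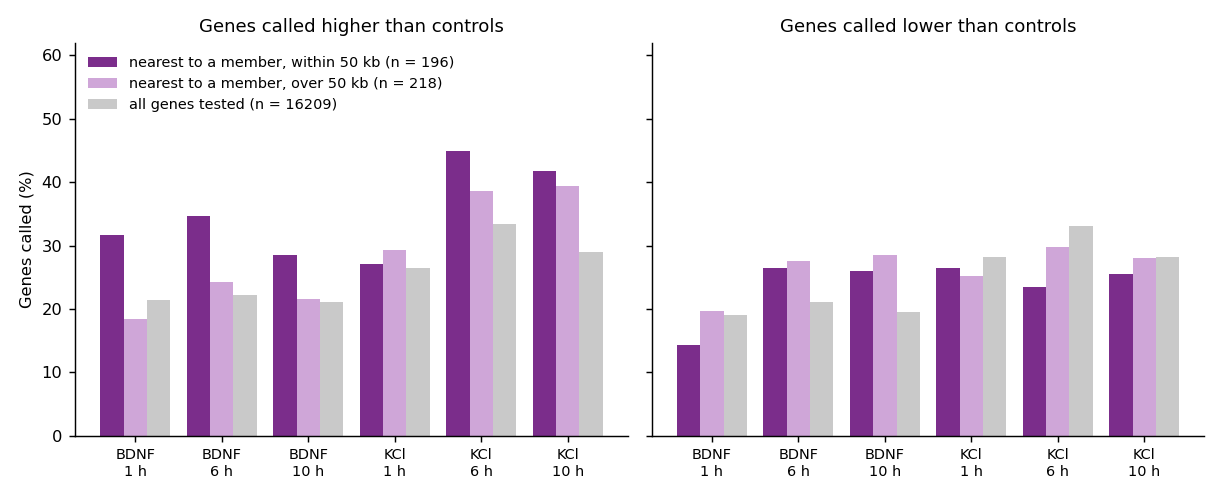
Share of genes called higher (left) or lower (right) than controls by limma at an adjusted p below 0.1, for genes with a member within 50 kb (n = 196), genes whose nearest member is farther (n = 218) and all 16209 genes tested. Near genes called higher stand above all genes at BDNF 1 h, at 31.6% against 21.3%, and at KCl 6 h, at 44.9% against 33.4%.

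Compared directly at 1 h, 71 of the 196 near genes were higher with BDNF than with KCl (36.2%) and 36 lower (18.4%), against 24.6% and 18.2% of all genes. Among the 218 farther genes 45 were higher (20.6%) and 56 lower (25.7%). For peaks opened by BDNF only, 27.3% were higher and 20.1% lower within 50 kb, and 21.2% and 27.7% farther away. For peaks opened by KCl only, 11.2% were higher and 36.4% lower within 50 kb, and 23.1% and 24.8% farther away. The difference between near and far genes was not tested.

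The genes named next were chosen as the strongest of those called with both stimuli at 1 h and within 50 kb of a member, so their direction is set by the choice. Hic1, a transcriptional repressor 3.05 kb from its member, had 15.6, 21.1 and 30.1 normalised reads in controls, 181 and 177 at BDNF 1 h and 58.0 and 56.7 at KCl 1 h. It rose by a log2 change of 3.06 (SE 0.22, limma adjusted p = 3.27e-10) and 1.44 (SE 0.22, limma adjusted p = 1.35e-05). The change was larger with BDNF, by 1.63 (limma adjusted p = 5.72e-05). At 6 h the change was 1.67 with BDNF (limma adjusted p = 4.03e-06) and -0.27 with KCl (limma adjusted p = 0.306).

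Slc2a3, the neuronal glucose transporter, had 1223, 1405 and 1481 normalised reads in controls, 5339 and 5593 at BDNF 1 h, and 3855 and 3011 at KCl 1 h. It stayed high with KCl at 6 h, at 3791 and 3753, against 1894 and 1990 with BDNF. Nefl, the neurofilament light chain, went the other way, from 336, 399 and 428 in controls to 1507 and 1515 after 1 h of BDNF and 2537 and 2620 after 6 h. With KCl it had 796 and 640.5 at 1 h and 766 and 714 at 6 h. No stimulated library of either gene overlapped with controls at these times.

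Synj2, a phosphoinositide phosphatase, had a member 46 bases from its start and rose by 2.24 with BDNF at 1 h (SE 0.18, limma adjusted p = 2.53e-09) and by 0.61 with KCl (SE 0.18, limma adjusted p = 0.00834). The KCl call was lost without KCl 1 h library B, at 0.38. Bcor, a corepressor, rose by 1.74 with BDNF and 0.71 with KCl, from controls of 918 to 1018 normalised reads to 3132 and 3429 and to 1615 and 1592. The kinase Pak6, with a member at its promoter, the imprinted gene Nap1l5 and the kinase Sik3 rose by 0.51, 0.69 and 0.82 with BDNF and by 0.92, 1.59 and 0.79 with KCl. The potassium channel subunit Kcnf1 rose by 1.35 and 0.75, and the RNA cyclase Rtca by 0.45 and 0.60.

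Genes near members also fell. Mtus1, a microtubule-associated gene, went from 668 to 745 normalised reads in controls to 316 and 312 at BDNF 1 h and 388 and 385 at KCl 1 h. Alkbh3 had 120 to 143 in controls, 94.3 and 102 at BDNF 1 h and 42.0 and 47.0 at KCl 1 h (log2 change -0.42 and -1.54), although the Hsd17b12 exon peak near it was among the strongest members, and its BDNF call was lost without BDNF 1 h library A (-0.37). Ptpdc1, with an intronic member, fell by 0.63 on the log2 scale with BDNF and by 0.42 with KCl. Akap7, a kinase anchor, and Zfp827, a zinc finger gene, were the other 2, and the KCl change of Akap7 (-0.33) was not called without KCl 1 h library B (-0.24).

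Of the 196 near genes, 20 (10.2%) were called in opposite directions by the stimuli at 1 h, in comparisons that share their controls. The share was 4.73% of the 16209 genes tested and 5.64% of genes nearest to any kept peak, and the difference was not tested. The 5 with the smallest p of the direct comparison are given. Jmy, which nucleates actin, had 1145 to 1411 normalised reads in controls, 887 and 949 at BDNF 1 h and 3150 and 2844 at KCl 1 h. The BDNF minus KCl difference was -1.71 (SE 0.08, limma adjusted p = 1.06e-12), with no overlap between any of the groups. Ankrd28, a regulatory subunit gene of a phosphatase, differed by 1.36 the other way, with 1195 and 1217 at BDNF 1 h, 468 and 474 at KCl 1 h, and 594 to 694 in controls. Flrt1, an adhesion gene, Cxxc5, a CXXC zinc finger gene, and Pfkfb3, a regulator of glycolysis, were higher with BDNF and lower with KCl, by differences of 1.13, 1.04 and 0.95. The KCl call of Pfkfb3 (-0.20) was lost without KCl 1 h library B.

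Genes of AP-1 itself were measured in the same RNA. Of 13 listed, 11 were tested and Batf and Batf3 were too low. At 1 h 11 were higher with BDNF (median log2 change 2.23) and 10 with KCl (median 1.60). Fos rose from 25.1, 33.3 and 43.3 normalised reads in controls to 1715 and 1738 at BDNF 1 h and to 5742 and 5274 at KCl 1 h, and Fosb, at 4.93 to 10.8 in controls, reached 754 and 901 with BDNF and 5421 and 6088 with KCl. Both RNAs were higher with KCl, with BDNF minus KCl differences of -1.67 and -2.80 (limma adjusted p = 2.97e-07 and 3.27e-08). Members, in contrast, were mostly more accessible with BDNF. For Fos protein bound to chromatin, the study reports the reverse of the RNA, with more after BDNF than after KCl, in neurons derived from stem cells. How RNA or protein of these genes relates to accessibility was not tested.

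Compared directly at 1 h, 5 of the 11 were higher with BDNF and 5 with KCl. Besides Fos and Fosb, those higher with KCl were Junb, Maff and Mafk, with BDNF minus KCl differences of -0.82, -1.06 and -0.61 (limma adjusted p = 0.000387, 0.000392 and 0.00722). Jun, the usual partner of Fos, had 1096 to 1255 normalised reads in controls, 2904 and 3184 at BDNF 1 h and 1466 and 1526 at KCl 1 h, a difference of 1.02 (limma adjusted p = 1.92e-08). Fosl1 changed by 1.45 with BDNF and by 0.26 with KCl (limma adjusted p = 0.168 for KCl), Atf3 by 3.33 and 2.14, and Fosl2 by 2.23 and 1.60. Junb rose by 4.66 and 5.47. At 6 and 10 h, 5 and 4 of the 11 were still higher with BDNF, and 8 and 9 with KCl, where Fos had 1727 and 1809 at 6 h against 125 and 105 with BDNF. With KCl, 2 of the 11 were lower than controls at each of these times, Jun by log2 changes of -0.59 and -0.29 and Fosl1 by -0.55 and -0.44, and none was lower with BDNF.

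Within 100 kb of the activity genes themselves, the share of members was close to that of all kept peaks. Of 48 listed activity genes (AP-1, EGR, other early factors, effectors and kinase feedback genes), 47 had a kept peak within 100 kb that was nearest to them. These 145 peaks held 2 members, 1.38%, against 1.37% of all kept peaks at any distance from a start. A share from 2 peaks is imprecise. At 1 h, 6 of 6 EGR genes, 9 of 9 other early factors, 11 of 11 effectors and 9 of 9 kinase feedback genes were higher with BDNF, and 5, 7, 9 and 8 of them with KCl (1 lower in each list). Arc, an effector of synaptic plasticity, and Egr2, an early factor, had large RNA changes with BDNF (7.56 and 8.27). Each had 3 kept peaks within 100 kb and no member among them, which is too few peaks to read as a lack of members.

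The 2 listed genes with a member within 100 kb were Spred2, an inhibitor of MAP kinase signalling, and Fosl2. Nab1, Scg2 and Klf4 were each nearest to 1 member farther away, at 127, 128 and 559 kb. The Spred2 member, in its intron 24.9 kb from the start (chr11:19979271-19979668), had the largest L of all members with BDNF, 4.51, against 1.65 with KCl. It had 0.332, 1.49 and 4.12 CPM in controls, 46.5 and 48.9 at BDNF 1 h, 7.098 and 6.09 at KCl 1 h, and 12.8 and 8.07 at BDNF 6 h. Spred2 RNA went from 765 to 866 normalised reads in controls to 2637 and 2758 at BDNF 1 h (1.72, limma adjusted p = 5.6e-14) and 1111 and 900.3 at KCl 1 h (0.29, limma adjusted p = 0.00331). The Fosl2 member lay 99.9 kb from Fosl2 in an intron of Babam2 (chr5:32035751-32036129, 2 TGACTCA), with 0.332 to 2.13 CPM in controls, 10.7 and 20.2 at BDNF 1 h, and 6.84 and 3.69 at KCl 1 h.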

How the data were processed

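ATAC-seq values per peak were deposited by the authors under the name of normalised counts, and their methods describe a LOESS correction. The values were whole numbers, at least 1, with totals that differed between libraries, and were taken here as uncorrected read counts. This reading rests on the values alone, and CPM, L and the tests depend on it. The methods name Trimmomatic, Bowtie2, MACS2 and DiffBind on mm10. RNA values were deposited by the authors as a normalised signal, the TopHat2 read counts per gene divided by 1 DESeq2 size factor per sample. Whole reads were recovered from 100% of the RNA values within a tolerance of 0.01. The authors' tables of fold changes and p-values were not used. No per-sample column was left unused (0). Depth was 1.24 to 6.24 M reads in peaks (median 3.55) and 8.51 to 36.7 M RNA reads (median 11.6), and no libraries were identical.

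Samples were grouped by their labels. Accessibility between late groups was tested with edgeR 4.0.16 (quasi-likelihood, LOESS offsets, 7 levels, mean count of at least 10) and RNA with limma 3.58.1 on log2(value + 1), mean of at least 10, both with Benjamini-Hochberg adjustment and calls below 0.1. RNA fold changes are on that log2 scale, which understates changes of low genes. DESeq2 1.42.0, edgeR on the recovered reads, other filters and scalings, and leaving out each library were alternatives. Tests were checked on simulated data. Sequence came from the RefSeq GRCm38 genome and starts from GENCODE, read with pysam 0.24.0. Intervals are exact 95% binomial. R 4.3.3 and Python 3.11.15 were used.

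Named peaks were the 10 with the largest smaller L at 1 h, the 3 nearest the threshold on either side, promoter members, members nearest to listed activity genes, and late calls of smallest p. Named genes lay within 50 kb of a member and were called with both stimuli at 1 h (largest smaller change, or opposite directions). The peaks, gene lists and motifs were chosen with earlier results of these data known.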

Additional observations from a re-analysis of the deposited data

Results flagged for a closer look

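In 3 of the 54 sets of 6 control libraries examined, 1 library lay far from the others, against about 1 in 20 by chance. At chr16:63412578-63413209, near Epha3, control 1 h library 1 had 3.98 CPM and the controls' median was 1.44. At chr4:52606725-52607177, the promoter of Toporsl, control 6 h library 2 had 5.41 CPM against a median of 1.45. At chr11:19979271-19979668, in Spred2, control 10 h library 1 had 4.12 CPM against 1.49.

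Among the 196 tested genes within 50 kb of a member, RNA of 20 was called in opposite directions by the stimuli at 1 h. That was 10.2%, against 4.73% of all genes tested. The 5 with the smallest p of the direct BDNF minus KCl difference in limma are given. The difference was -1.71 for Jmy (adjusted p = 1.06e-12), 1.36 for Ankrd28 (adjusted p = 2.15e-11), 0.95 for Pfkfb3 (adjusted p = 4.85e-08), 1.13 for Flrt1 (adjusted p = 6.81e-08) and 1.04 for Cxxc5 (adjusted p = 1.07e-07).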

How the results depend on the processing

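The number of peaks chosen moved most with the count filter, the controls and the KCl 1 h libraries. It was 1149 with a mean count of at least 10 (530 shared with the 557), 1188 with no filter (532 shared), 967 against the 2 controls of 1 h (470 shared), and 342 to 943 when single libraries were left out. The share with TGACTCA, recomputed over the peaks chosen each time and added after seeing the data, was 66.9% to 75.3%. In 200-base windows and whole peaks, TGACTCA was found in 67.3% and 78.8% of members and 6.74% and 12.6% of kept peaks, and TGANTCA in 79.4% and 90.3% of members and 9.93% and 18.5% of kept peaks. With starts extended to 2 kb either side, or starts of all genes, promoters took 6.46% and 6.64% of members and 34.0% and 34.9% of kept peaks.

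Leaving out single libraries, members called were 18 to 31 at 6 h and 4 to 21 at 10 h between the stimuli, 0 to 1 for KCl from 6 to 10 h and 0 to 1 for the difference of the late changes. Nearest genes called lower were 9.42% to 10.6% at BDNF 1 h, 17.1% to 17.9% at BDNF 6 h and 15.2% to 19.1% at BDNF 10 h. The cause was not tested, and neither the counts of all peaks nor the shares of all genes in these settings are given here. The Sik3 difference between the stimuli at 1 h, 0.02, was -0.011 with edgeR on recovered reads, -0.015 without BDNF 1 h library B and -0.080 to 0.129 over the libraries left out (-0.080 without KCl 1 h library B), and was never called. Among values of single genes and peaks, 511 comparisons kept their direction and side of the threshold, 25 lost the call and 1 gained it.

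No paired ATAC analysis was possible because the ATAC columns carry no replicate number. The RNA letters were not taken as pairs in the main fit. Of 36 pairs of groups, 13 had a correlation of deviations over 0.1 (range -0.31 to 0.42), which cannot exclude pairing, since no reference was computed. With the letter as a replicate block, nearest genes called higher and lower were 25.1% and 17.4% at BDNF 1 h and 29.2% and 26.8% at KCl 1 h, and no such share moved by over 1.5 times. With 2 libraries per group, depth and replicate number limit the late comparisons.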
